A study of Mus musculus with 4 samples.

Results

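Genes of the calcium, potassium, proton and cyclic AMP machinery of the sperm flagellum were examined in testis RNA of mice mutant for Lrrc8a and of wild-type mice. They were taken by symbol from the deposited table, and all 10 were found among its 24420 symbols: the CatSper pore genes Catsper1, Catsper2, Catsper3 and Catsper4, the accessory subunit genes Catsperb and Catsperd, the sperm potassium channel gene Kcnu1 with its partner Lrrc52, the proton channel gene Hvcn1 and the soluble adenylyl cyclase gene Adcy10. The mutant group (MUT, 2 libraries) is labelled lrrc8a MUT and the wild-type group (WT, 2 libraries) WT, both of strain FVB. Both came from freshly isolated testis with no other treatment of the animals stated, and neither the kind of mutation, nor zygosity, nor age is given in the labels. The labels do not state separate animals for the replicates either, so p-values here measure library spread that could be technical.

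CatSper is the calcium channel of the principal piece of the sperm tail. Its pore is built from the products of Catsper1 to Catsper4, each a separate subunit, and is surrounded by accessory proteins, several of which are needed for the channel to assemble in sperm. Calcium entry through it drives the vigorous asymmetric beat called hyperactivation. Kcnu1 encodes SLO3, the potassium channel that makes the sperm membrane potential more negative during capacitation, and Lrrc52 encodes the leucine-rich repeat protein that shifts its voltage dependence. Hvcn1 encodes the voltage-gated proton channel Hv1, and Adcy10 the bicarbonate-activated cyclase that makes cyclic AMP in sperm. Transcription of most of these genes is known to belong to the late meiotic and haploid germ cells, so testis RNA shows the supply of transcripts and not the channels of ejaculated sperm.

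Lrrc8a, the mutated gene, was at 13.49 and 15.86 CPM (reads scaled to library size) in the MUT libraries, against 18.21 and 17.15 CPM in the WT libraries. Its difference did not pass the test (limma adjusted p = 0.218), so its level does not check the genotype labels, and the affected stretch of the gene is not named. The libraries held 40426400 to 68192776 reads. The deposited CPM summed to 992487 and 987723 in MUT, against 1011463 and 1008533 in WT, so they were not scaled to the plain read total. The 10 genes together took between 0.1575% and 0.1619% of the reads of a library. The label germ cells was checked against marker lists: all 8 spermatogonial, 8 spermatocyte, 8 round spermatid and 10 elongating spermatid markers averaged at least 1 CPM, but so did all 8 Sertoli, 8 Leydig and 6 peritubular myoid markers. The libraries are therefore described as testis RNA of germ and somatic cells. This threshold cannot tell whole testis from germ cells with some somatic cells left in. In such mixed RNA, fewer cells of a type and less RNA per cell cannot be told apart.

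Promoter sequence was at hand for 7 of the 10 genes, from RefSeq on GRCm38.p6. The stretches below are the 250 bases before the annotated start, 5′ to 3′ on the strand of the gene. They are shown because Catsper2 and Catsperd are the only members of the 7 in which any of the searched motifs was found, and Adcy10 is the member with the most reads. Capitals mark a match on either strand to TGACG (the core of the cyclic AMP response element) or GGGCGG (the GC box).
Catsper2, chr2:121413793-121414042, minus strand: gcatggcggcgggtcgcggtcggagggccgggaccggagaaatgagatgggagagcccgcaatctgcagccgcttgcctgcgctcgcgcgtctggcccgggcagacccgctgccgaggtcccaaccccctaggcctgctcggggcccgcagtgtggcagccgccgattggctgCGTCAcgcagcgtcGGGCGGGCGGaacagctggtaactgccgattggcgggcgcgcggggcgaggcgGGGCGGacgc
Catsperd, chr17:56626797-56627046, plus strand, the upstream of 2 annotated starts: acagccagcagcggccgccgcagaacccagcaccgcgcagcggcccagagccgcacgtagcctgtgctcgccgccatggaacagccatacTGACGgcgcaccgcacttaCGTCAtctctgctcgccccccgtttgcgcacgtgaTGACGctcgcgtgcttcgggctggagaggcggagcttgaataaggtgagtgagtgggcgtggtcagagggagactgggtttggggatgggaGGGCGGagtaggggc
Adcy10, chr1:165484933-165485182, plus strand: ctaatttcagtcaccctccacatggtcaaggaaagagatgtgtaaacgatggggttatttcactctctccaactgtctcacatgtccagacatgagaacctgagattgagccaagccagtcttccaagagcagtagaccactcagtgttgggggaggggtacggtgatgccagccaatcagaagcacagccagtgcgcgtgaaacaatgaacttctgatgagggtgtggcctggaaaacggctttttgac

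The Catsper2 stretch held 1 match to TGACG, beginning 77 bases before the start, and 3 to GGGCGG, of which the pair beginning 63 and 59 bases before the start overlaps. The Catsperd stretch held 3 matches to TGACG, at 160, 141 and 106 bases, and 1 to GGGCGG at 15 bases. The window before the other annotated Catsperd start, chr17:56627893-56628142, which ends at the base before the GENCODE start of the gene, held 0 matches to any motif searched. Over 32851 RefSeq promoter windows of the same length, 17.8% held TGACG and 32.7% held GGGCGG. Neither GTTGCC, the core of the X-box bound by RFX factors (10.4% of windows), nor TATAAA, the TATA box (12.4% of windows), was in any window of the 7 genes, which says only that these letters are not there. The windows differed in composition. Catsper2 had 74.8% G and C with 35 CpG dinucleotides, the Catsperd stretch shown 66.8% with 25, the other Catsperd window 52.8% with 11, Adcy10 50% with 5, Catsper4 45.2% with 1 and Catsperb 38% with 1. Exons of Catsper2 overlap exons of Pdia3 on the opposite strand by 18 bases. Whether the Catsper2 stretch also belongs to Pdia3 was not tested.

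No member passed the test between the genotypes. Of the 10, all had at least 1 CPM in each library and were tested, 0 were called higher and 0 lower at an adjusted p under 0.05, and the smallest adjusted p was 0.174, of Catsperd. Across all 15364 tested genes 0.749% were called, 0.482% higher and 0.267% lower in MUT. At an unadjusted p under 0.05, 3 of the 10 stood out (Catsper3 above, Catsperd and Kcnu1 below WT), against 14.7% of all tested genes. The count tests made on reads recovered from the CPM, edgeR and DESeq2, also called 0 members, with 3 at an unadjusted p under 0.05 in each. The log2 difference was below 0 for 9 members and above 0 for 1, with a median of -0.07. Over all tested genes 50.4% lay below 0 with a median of -0.0016. Among tested genes averaging between 30 and 550 CPM, a range that holds every member but Hvcn1, 56.7% lay below 0 with a median of -0.02. After quantile normalization or with CPM rescaled to equal sums, 6 members lay below 0. With the rescaled CPM the members' median was -0.04, but that scaling also moved the median of all tested genes, to 0.0258.

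**Figure D1:**
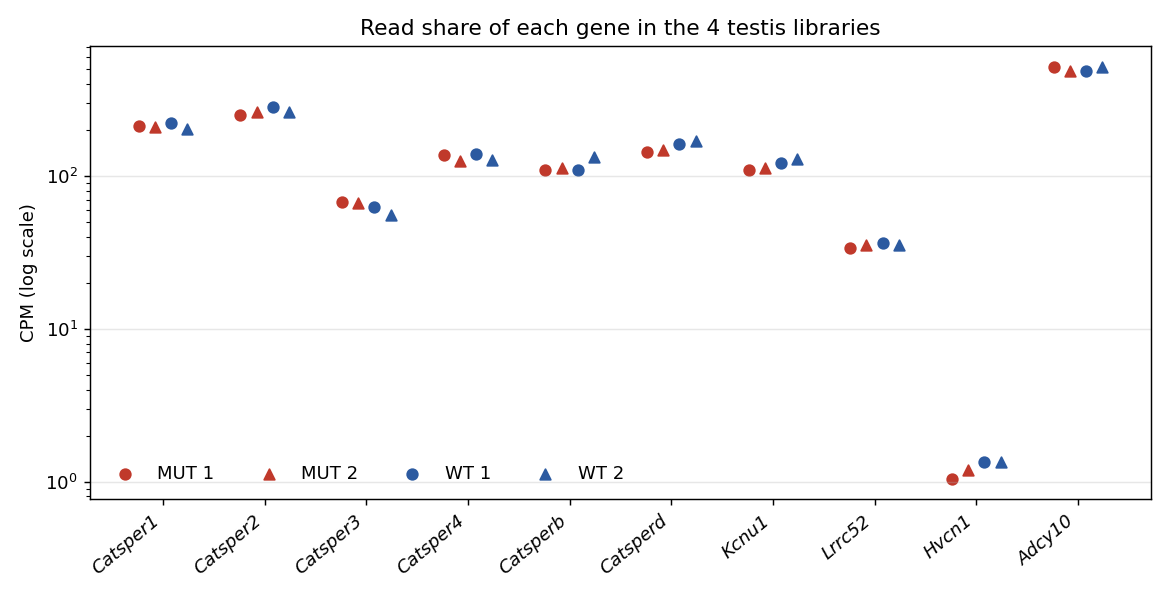
CPM of each gene (log axis) in the 4 libraries, red for MUT and blue for WT, circles for replicate 1 and triangles for replicate 2. Adcy10 sits highest, between 484.8 and 518.8 CPM, and Hvcn1 lowest, between 1.046 and 1.35 CPM, and the libraries of a gene lie close together.

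Among the pore genes, Catsper1, whose product carries a histidine-rich amino terminus, was at 213.2 and 208.1 CPM in MUT, against 220.0 and 202.5 CPM in WT. The WT libraries enclosed both MUT libraries. Its log2 difference was -0.0031 (SE 0.0648, limma adjusted p = 0.99), with a 95% interval from 0.908-fold to 1.1-fold. Catsper2 was at 251.8 and 259.9 CPM in MUT, against 280.7 and 261.6 CPM in WT. Both MUT libraries lay below both WT libraries, but MUT 2 and WT 2 were nearly level, and the log2 difference of -0.08 (SE 0.0631) did not pass the test (adjusted p = 0.574). It was -0.03 without WT 1 and -0.13 without WT 2.

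Catsper3 was the only member above WT in MUT. It was at 67.33 and 66.77 CPM in MUT, against 62.4 and 55.39 CPM in WT, so that both MUT libraries lay above both WT libraries. The log2 difference of 0.19 (SE 0.0761) had a 95% interval from 1.02-fold to 1.27-fold, an unadjusted p of 0.0234 and an adjusted p of 0.253 (limma), and was not called. The lower WT 2 library set much of it: without WT 2 the log2 difference was 0.10. Catsper4 was at 137.1 and 125.8 CPM in MUT, against 138.9 and 126.6 CPM in WT. Its libraries formed a high and a low pair, each with 1 library of each genotype, and its log2 difference was -0.01 (SE 0.071, adjusted p = 0.953).

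The proportions between pore transcripts were also compared within each library. Catsper1 reads were 0.8468 and 0.8007 times those of Catsper2 in MUT and 0.7837 and 0.7743 times in WT, without overlap of the genotypes. The Catsper4 to Catsper2 ratio lay between 0.4839 and 0.5447 over the 4 libraries, with overlap. The ratio of Catsper3 to Catsper2 was 0.2674 and 0.2569 in MUT and 0.2223 and 0.2118 in WT, again without overlap. The Catsper3 ratio was picked out after its values were seen. None of these ratios has a test, and how often ratios of other genes separate the genotypes was not counted.

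Of the accessory subunits, Catsperb encodes the large single-pass protein CATSPER beta, whose extracellular part helps to form the canopy over the pore. It was at 109.7 and 112.8 CPM in MUT, against 109.6 and 133.5 CPM in WT. WT 1 lay below both MUT libraries and WT 2 above them, and the log2 difference was -0.12 (SE 0.0805, limma adjusted p = 0.514). This value rested on WT 2, without which it was 0.02, while without WT 1 it was -0.26. Catsperd encodes CATSPER delta, which is needed for the complex to be stable. It was at 142.9 and 147.8 CPM in MUT, against 162.5 and 169.2 CPM in WT, with both MUT libraries below both WT libraries. Its mean was 12.4% lower in MUT, a log2 difference of -0.19 (SE 0.0645) with a 95% interval from 0.798-fold to 0.963-fold. The unadjusted p was 0.00847, at rank 746 of the 15364 genes, and the adjusted p 0.174.

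Kcnu1 was at 108.7 and 113.3 CPM in MUT, against 120.7 and 128.9 CPM in WT. Both MUT libraries were below both WT libraries, by a log2 difference of -0.17 (SE 0.0677) that was not called (unadjusted p = 0.0229, limma adjusted p = 0.25). Its 95% interval ran from 0.807-fold to 0.982-fold. Lrrc52 was at 33.79 and 35.5 CPM in MUT, against 36.38 and 35.26 CPM in WT. The genotypes overlapped, and the log2 difference was -0.05 (SE 0.0791, adjusted p = 0.833). It was -0.01 without MUT 1, -0.03 without WT 1 and -0.08 without MUT 2. In reads, Lrrc52 was 0.3108 and 0.3134 times Kcnu1 in MUT and 0.3015 and 0.2735 times in WT, without overlap of the genotypes. This ratio has no test.

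Hvcn1 was at 1.046 and 1.197 CPM in MUT, against 1.35 and 1.347 CPM in WT. These values stand for 51 and 49 reads in MUT and 91 and 67 reads in WT, so counting alone gives an error of about 14.3% in the library with the fewest. Both MUT libraries lay below both WT libraries, yet the log2 difference of -0.19 (SE 0.174, limma adjusted p = 0.653) had the widest interval of the 10 genes, from 0.681-fold to 1.13-fold. Without MUT 1 it was -0.12. Of its merged exons, 44.2% overlap exons of Tctn1 on the opposite strand, a gene at 72.39 to 80.52 CPM. How the counting treated strand is not stated, so the assignment of reads from that stretch is unknown. Hvcn1 is also expressed in blood cells. The lymphocyte markers summed to 14.99 and 12.34 CPM in MUT and 13.65 and 12.83 CPM in WT, with 3 of 8 averaging at least 1 CPM. The macrophage markers, of which 7 of 8 averaged at least 1 CPM, summed to between 99.13 and 101.5 CPM in MUT and between 89.63 and 90.24 CPM in WT. Their sums thus lay higher in MUT without overlap, while Hvcn1 lay lower. The part of these cells in the Hvcn1 reads was not tested.

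Adcy10, by reads the most abundant of the 10, was at 513.8 and 484.8 CPM in MUT, against 485.4 and 518.8 CPM in WT. The genotypes overlapped almost fully. Its log2 difference was -0.0079 (SE 0.0616, limma adjusted p = 0.97), and its 95% interval, from 0.909-fold to 1.09-fold, was the narrowest of the set.

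Groups that do not overlap were common in this comparison. In 4 members (Catsper2, Catsperd, Kcnu1 and Hvcn1) both MUT libraries lay below both WT libraries, as in 22.6% of all tested genes. In 1 member (Catsper3) both lay above, as in 23% of all tested genes. Of the 5788 tested genes averaging between 30 and 550 CPM, a range without Hvcn1, 1592 lay wholly below WT and 1156 wholly above. On the log2 scale, the lowest limit of the 10 intervals was -0.55 (Hvcn1) and the highest 0.35 (Catsper3). These unadjusted intervals do not show that the levels are the same.

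**Figure D2:**
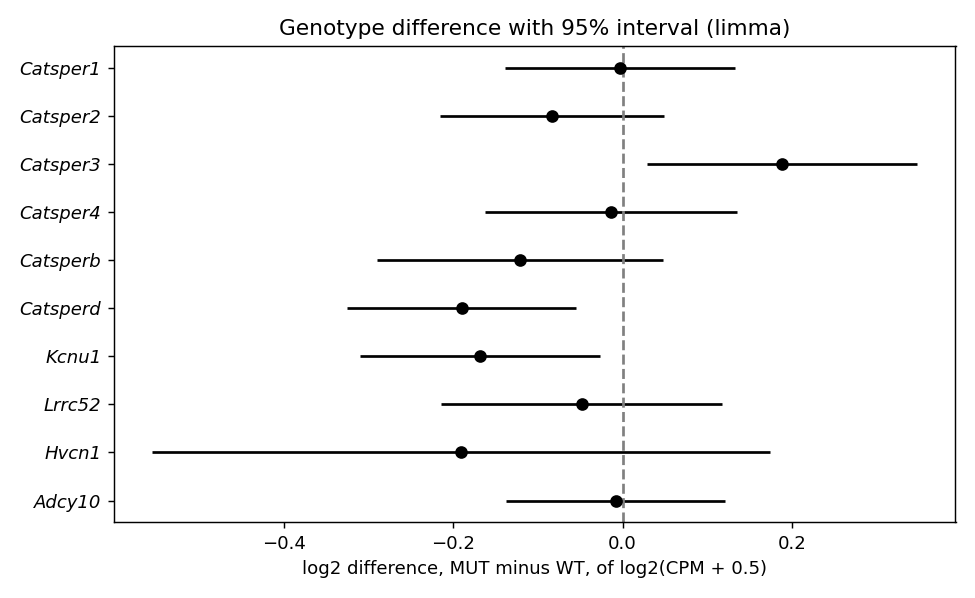
Log2 difference between genotypes (MUT minus WT, on the log2(CPM + 0.5) scale) of each gene, with the 95% interval from limma. Points left of the dashed line were lower in MUT; the intervals of Catsperd and Kcnu1 lie below 0 and that of Catsper3 above 0 before adjustment, and adjusted p was 0.174 or more for each.

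Levels can be set side by side between genes only per length, so CPM were divided by the merged exon length in GENCODE vM21 (GRCm38). On this scale Catsper1 (2.188 kb of exons, chromosome 19 from 5335741 to 5344280) was highest at 96.4 CPM per kb, the mean of 4 libraries with a range from 92.6 to 100.5. Catsper2 (chromosome 2, 121392631 to 121413792) followed at 71.3, Catsper4 (chromosome 4, 134211970 to 134227383) at 62.9 and Adcy10 (chromosome 1, 165485183 to 165576774) at 57.3 CPM per kb. The range of each of these 4 genes over the libraries did not overlap that of the next. Catsper3 (chromosome 13, 55784568 to 55808998) at 46.3 and Catsperd (chromosome 17, 56628143 to 56664456) at 43.4 CPM per kb came next and overlapped each other. Kcnu1 (chromosome 8, 25849623 to 25937939) and Lrrc52 (chromosome 1, 167445669 to 167466780) overlapped as well. They were at 31.5 and 30.8 CPM per kb, a ratio of 1.02, although Kcnu1 had more reads over its longer exons. Catsperb (chromosome 12, 101404653 to 101626009) was at 21.1 and Hvcn1 (chromosome 5, 122206804 to 122242297) at 0.347 CPM per kb, each without overlap with its neighbour above.

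The pore genes thus spanned 2.08-fold per kb, and 9 of the 10 members lay between the 85.8 and the 96.9 percentile of 20963 detected genes with a length, whose median was 1.9 CPM per kb. Hvcn1 lay at the 28.3 percentile, with Adcy10 at 165-fold its level per kb. The length used for Hvcn1 includes the 44.2% of its exons that overlap Tctn1, where the assignment of reads is unknown. Divided by the longest annotated transcript instead, Catsper2 (115 CPM per kb) came before Catsper1 (96.4), Adcy10 (89.9) before Catsper4 (76.6), Catsperd (60.9) before Catsper3 (47.3) and Catsperb (31.3) before Lrrc52 (30.8). The order among close neighbours therefore depended on the length used. All 10 are protein-coding genes. Catsper2, the only member on the chromosome of Lrrc8a, lies 91.2 Mb from it.

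**Figure D3:**
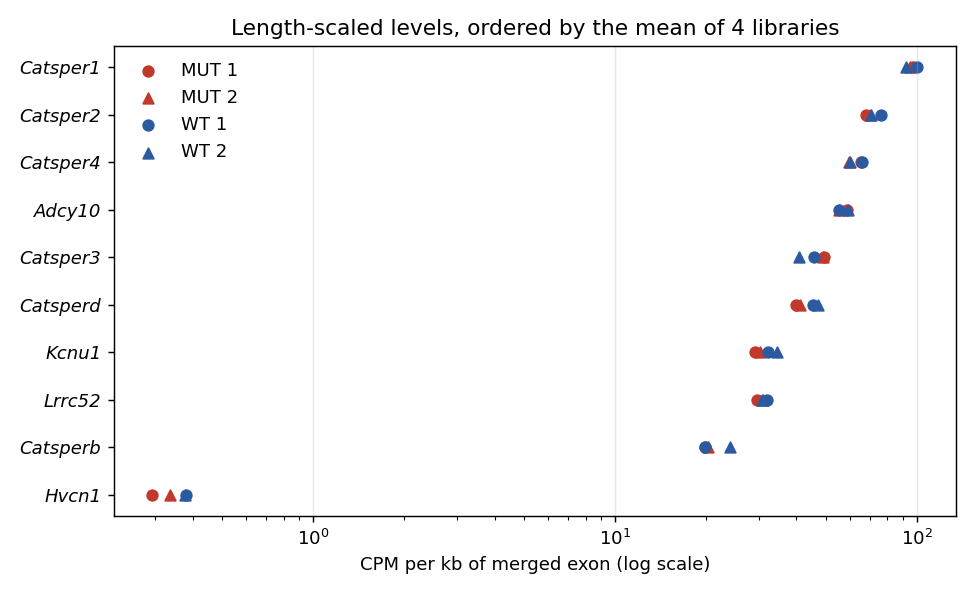
CPM per kb of merged exon (log axis) of each gene in the 4 libraries, ordered by the mean. Catsper1 leads at a mean of 96.4 and Hvcn1 trails at 0.347 CPM per kb, and genotypes (red MUT, blue WT) interleave or lie close in every row.

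The other genes of the same machinery were taken from 6 lists: the CatSper pore, CatSper accessory proteins, Slo channels with their gamma subunits, proton and sodium exchange, cyclic AMP signalling, and sperm calcium handling with hyperactivation. Apart from the members they named 62 genes, of which 59 were in the table and 52 were tested. Of these, 0 were called higher and 0 lower by limma, against 0.749% called of all tested genes. An unadjusted p under 0.05 was found for 13 (5 above and 8 below WT), against 14.7% of all tested genes. edgeR called 0 of them. DESeq2 called 1, while over all genes it called 94 higher and 72 lower. The median log2 difference of the tested list genes was -0.02, and 29 of 52 lay below 0. After quantile normalization the median was 0.02 with 23 below 0, and with CPM rescaled to equal sums 0.0051 with 26 below 0. The rescaling moved the median of all tested genes to 0.0258.

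Of the CatSper accessory genes that are no member, 8 were tested, with a median log2 difference of -0.05 (-0.02 after quantile normalization or with CPM rescaled to equal sums). An unadjusted p under 0.05 was found for 3 below WT and 2 above, against 14.7% of all tested genes. Efcab9 encodes an EF-hand protein that senses calcium for the channel. It was at 97.98 and 95.43 CPM in MUT, against 113.7 and 122.1 CPM in WT, with no overlap (log2 difference -0.28, SE 0.0683, limma adjusted p = 0.0599). DESeq2 called it lower (adjusted p = 0.0194). Among settings that kept all 4 libraries, it was otherwise called only in those chosen after seeing the data. These were the correction for GC content and transcript length (limma adjusted p = 0.0471) and the replicate numbers crossed as a block (0.0306). It was not called by edgeR, with the replicate number as a block or after quantile normalization. Without WT 1 its log2 difference was -0.34. Catsperz, in the table under its older name Tex40, encodes the partner of EFCAB9. It was at 281.9 and 288.6 CPM in MUT, against 329.0 and 322.5 CPM in WT (log2 difference -0.19, SE 0.0602, adjusted p = 0.143). Catspere2, under its older name Gm16432, lay the other way. It was at 25.98 and 24.48 CPM in MUT, against 17.9 and 23.16 CPM in WT (log2 difference 0.30, SE 0.105, limma adjusted p = 0.182). It was lowest in WT 1, and without WT 2 its log2 difference was 0.48. No setting that kept all 4 libraries called it.

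Of the Slo and gamma subunit genes, 3 that are no member were tested. Lrrc55, a gamma subunit gene of the large-conductance channel encoded by Kcnma1 and a relative of Lrrc52, was at 4.551 and 4.911 CPM in MUT, against 7.075 and 6.735 CPM in WT. Its libraries did not overlap, and its log2 difference of -0.50 (SE 0.12) missed the threshold (limma adjusted p = 0.0584). Among settings that kept all 4 libraries, it was called only with the replicate numbers crossed as a block (limma adjusted p = 0.0466). That setting was chosen after seeing the data. It was not called by edgeR or DESeq2. Without MUT 2 its log2 difference was -0.55. Kcnt1, a sodium-activated potassium channel gene, was at 5.33 and 4.544 CPM in MUT, against 5.473 and 5.81 CPM in WT (adjusted p = 0.54), and Kcnma1 between 4.865 and 5.289 CPM in the 4 libraries (adjusted p = 0.854). Lrrc26, Lrrc38 and Kcnt2 were below the filter.

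All 6 tested genes of proton and sodium exchange that are no member lay below 0 (5 of 6 after quantile normalization or with CPM rescaled to equal sums), with log2 differences from -0.14 to -0.02, and 0 of them had an unadjusted p under 0.05. Slc9a8, a sodium-proton exchanger gene, was at 63.27 and 68.97 CPM in MUT, against 69.61 and 72.12 CPM in WT (limma adjusted p = 0.555). Atp1a4, the sodium pump subunit of sperm, was at 844.7 and 785.5 CPM in MUT, against 808.8 and 920.7 CPM in WT, with overlap (adjusted p = 0.598).

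In the cyclic AMP list, 14 genes beside Adcy10 were tested, 6 of them below 0 and 8 above, with a median log2 difference of 0.04 (0.07 with CPM rescaled to equal sums). Prkar2a, a regulatory subunit gene of protein kinase A, was at 208.9 and 190.4 CPM in MUT, against 213.2 and 256.9 CPM in WT (log2 difference -0.23, SE 0.0787, limma adjusted p = 0.176). Without WT 1 its log2 difference was -0.36, and no setting that kept all 4 libraries called it. Akap3, an anchor of that kinase in the fibrous sheath, was at 993.0 and 963.0 CPM in MUT, against 1035.5 and 1134.9 CPM in WT (adjusted p = 0.254). Pde10a, a phosphodiesterase gene, was at 63.15 and 63.72 CPM in MUT, against 57.15 and 58.71 CPM in WT (adjusted p = 0.416).

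In the calcium list 21 genes were tested, 10 below 0 and 11 above (6 below 0 after quantile normalization, 8 with CPM rescaled to equal sums), with a median of 0.0086 (0.04 under either of these scalings). Plcz1, the sperm phospholipase that starts calcium oscillations in the egg, was at 231.1 and 220.8 CPM in MUT, against 245.6 and 295.5 CPM in WT (log2 difference -0.25, SE 0.0755, limma adjusted p = 0.119). WT 2 was the highest library, and without WT 1 the log2 difference was -0.39. No setting that kept all 4 libraries called the gene. Atp2b4, the main plasma membrane calcium pump of sperm, was at 172.1 and 164.5 CPM in MUT, against 142.6 and 149.9 CPM in WT (log2 difference 0.20, SE 0.0652, adjusted p = 0.155). Itpr1, an inositol trisphosphate receptor gene, was at 47.01 and 42.56 CPM in MUT, against 37.76 and 38.42 CPM in WT (adjusted p = 0.181). For Atp2b4 and Itpr1 both MUT libraries lay above both WT libraries, and neither was called.

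**Figure D4:**
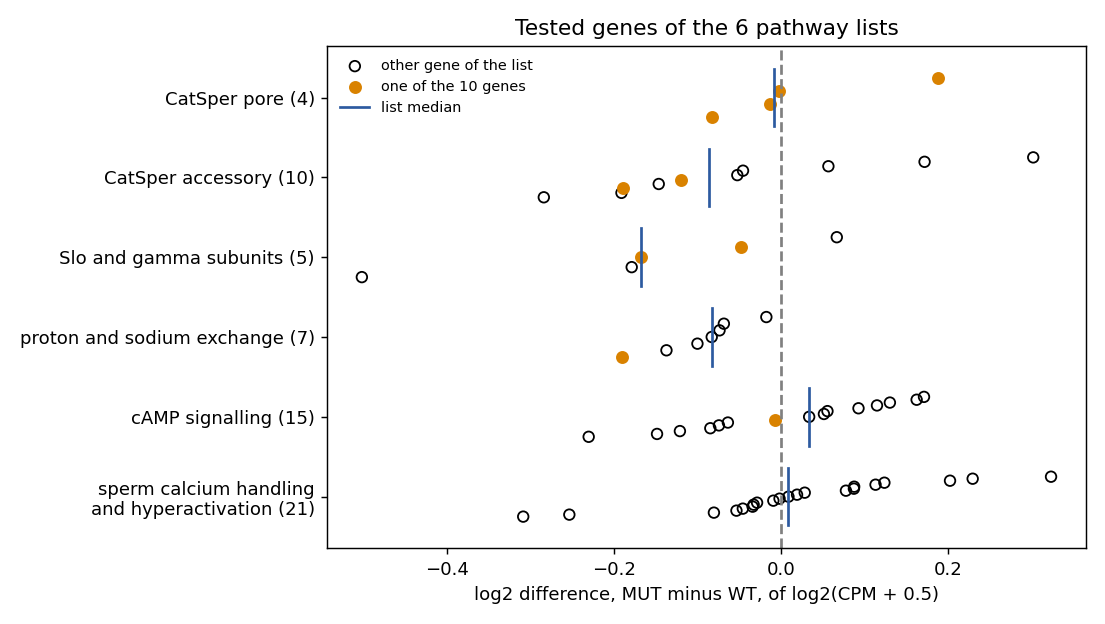
Log2 difference between genotypes (MUT minus WT) of every tested gene of the 6 lists, filled for the 10 genes, open for the others, with the median of each list as a line; numbers beside the names are tested genes. The points spread to both sides of 0 in the accessory, cyclic AMP and calcium lists, the lowest is Lrrc55 at -0.50, and none was called.

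Germ cell markers overlapped between the genotypes. The summed CPM of the 8 round spermatid markers was 2182 and 2239.6 in MUT and 2274 and 2203.5 in WT, and that of the 10 elongating spermatid markers 22619 and 21631 in MUT and 24526 and 22187 in WT. The elongating list shares Akap4 with the cyclic AMP list. The Leydig, Sertoli and peritubular myoid sums did not overlap between the genotypes, and neither did the macrophage sums given above. The Leydig markers summed to 1172 and 1208 CPM in MUT and to 1024 and 1004 CPM in WT, and the 8 Sertoli markers to 892.1 and 926.7 CPM in MUT and to 866.6 and 821.4 CPM in WT. The 6 peritubular myoid markers lay the other way, at 369.3 and 389.7 CPM in MUT, against 419.8 and 406.3 CPM in WT. The Leydig, Sertoli and peritubular myoid sums each leaned on a single gene. Averaged over all libraries, Cyp17a1 was at 610.7 CPM in the Leydig list and Clu at 720.3 CPM in the Sertoli list. Actg2 was at 289.6 CPM in the peritubular myoid list. The part of these cell types in the members' values was not tested. The 10 members together summed to 1579 and 1556 CPM in MUT and to 1618 and 1633 CPM in WT. As shares of the reads these were 0.1591% and 0.1575% in MUT and 0.16% and 0.1619% in WT.

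Across the 4 libraries the mean centred log2 profile of the members was -0.04 in MUT 1, -0.02 in MUT 2, 0.03 in WT 1 and 0.03 in WT 2. Single members strayed further, such as Catsperb at 0.20 in WT 2 and Catsper3 at -0.18 there. By Euclidean distance over these 4 libraries, genes near to the mean profile among 9654 with a mean of at least 10 CPM included Dram1 (distance 0.00901), Gsk3b (0.00928), Trap1 (0.00952) and Mknk2 (0.01). This is a description of a nearly flat profile, and 24.5% of those genes lay within a distance of 0.1.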

How the data were processed

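Testis RNA of 2 MUT and 2 WT libraries was sequenced after Trizol extraction, DNase I treatment and TruSeq stranded mRNA preparation, per the labels' protocols. The authors deposited CPM for 24420 symbols. The submitters' processing notes name TopHat2 2.0.10, HTSeq 0.6.0, edgeR 3.8.6 and build mm10, with no role or order. All CPM (100%) were whole multiples of the smallest value in their library within 0.001, which gave back the reads, and 3 reads corresponded to 0.0445 to 0.0733 CPM.

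Symbols with at least 1 CPM in at least 2 libraries were tested on log2(CPM + 0.5) with limma 3.58.1 in R 4.3.3 (lmFit, eBayes with variance trend), two-sided, and called at a Benjamini-Hochberg adjusted p (over every tested gene) under 0.05. Fold changes on this scale understate those of low genes, and intervals are 95% and unadjusted. Alternatives used edgeR 4.0.16 and DESeq2 1.42.0 on recovered reads, and other pseudocounts, filters, scalings, variances, blocks and libraries. The pipeline was tested on simulated data. An exact permutation of 2 against 2 libraries cannot give a two-sided p under 0.333.

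Positions and lengths come from GENCODE vM21 (23334 symbols by name, 649 by synonym). All members are named, with any called list gene, up to 3 of smallest p per list and the 5 nearest in profile; 2 genes that this rule takes are not reported here. The members and lists were chosen with earlier results of these data known.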

Additional observations from a re-analysis of the deposited data

How the results depend on the processing

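The count of 0 called members held under all 18 alternatives, which include leaving out each library; the smallest adjusted p of a member was 0.0618 (Catsperb without WT 1). Catsper2, Catsper3, Catsperd, Kcnu1, Lrrc52 and Hvcn1 kept their direction in every alternative that gave a value; Hvcn1 has none with at least 5 CPM required, and no adjusted p from DESeq2. Catsper1, Catsper4 and Adcy10 turned to 0.0221, 0.0186 and 0.029 after quantile normalization and to 0.0255, 0.0148 and 0.0208 with CPM rescaled to equal sums, which moved the median of all genes to 0.0258; Catsper1 also to 0.00494 after correction for GC content and length. Leaving out single libraries gave -0.0626 to 0.0564 for Catsper1, -0.0809 to 0.0532 for Catsper4, -0.262 to 0.0214 for Catsperb and -0.0557 to 0.0400 for Adcy10.

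Deviations of same-numbered libraries were weakly and negatively correlated (-0.134 across 15364 genes). The replicate number as a block gave 57 higher and 31 lower genes overall against 74 and 41, and 0 members. The crossed pairing, chosen after seeing the data as was the GC correction, gave 131 and 104, with 0 members and 2 list genes. Counts over all genes were 7 and 4 without a filter, 5 and 2 with no variance trend, 35 and 18 with quantile normalization, 122 and 34 with CPM rescaled (78.2% higher, against 64.3%), 94 and 72 by DESeq2, 41 and 29 after GC correction, and 67 to 133 and 42 to 177 without single libraries (133 and 177 without WT 1, 86 lower without MUT 2). Against 0 list genes, DESeq2 and the GC correction called 1 each, and leaving out libraries 0 to 3. The causes were not tested. Depth limits Hvcn1, with 49 reads in its lowest library.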
